A study of Mus musculus with 6 samples.

Results

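The genes described here belong to the integrated stress response and the unfolded protein response, in cultured mouse spermatogonia with and without Cre-mediated targeting of Cdkn1c. The set holds 36 gene symbols: transcription factors of the ATF4 and CHOP branch, their targets, amino acid supply genes, sensors of the endoplasmic reticulum (ER), ER chaperones and factors of ER-associated degradation. They were taken by symbol from a raw count table of 32285 gene identifiers and matched 37 of them, because Ddit3 is listed under 2 identifiers. The extra Ddit3 identifier had 0 counts in all 6 libraries, and the other 36 rows all passed the filter on low counts.

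The libraries came from GS cells, germline stem cell cultures that keep properties of spermatogonial stem cells. All carried the genotype p57 flox/flox, in which loxP sites flank Cdkn1c, whose product p57 inhibits cyclin-dependent kinases. The 3 control libraries have this genotype alone, and the 3 p57 KO libraries are labelled p57 flox/flox-Cre, with Cre recombinase delivered by an adenovirus. The cells went through trypsin and then a Sephadex column, and their RNA was collected 2 days after the infection. The model is given as BDF1 in one field and as C57BL/6 and 129 strains in another, and the age of the mice as 3 days and as 10 days. The labels used here do not say whether control cells received a virus without Cre, or whether replicates were separate cultures. Every p-value thus reflects only how far these 6 libraries vary, and part of that spread may be technical.

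Both responses slow protein synthesis and raise a set of rescue genes. In the integrated stress response, kinases such as PERK, GCN2, PKR and HRI phosphorylate the initiation factor eIF2alpha; most translation falls, while the mRNA of the transcription factor ATF4 is translated better, and ATF4 then raises CHOP, ATF3, TRIB3 and amino acid supply genes. In the unfolded protein response the ER sensors IRE1, PERK and ATF6 react to misfolded proteins, and spliced XBP1 and cleaved ATF6 raise chaperones such as BiP. Phosphorylation of eIF2alpha, translation of ATF4, splicing of XBP1 and cleavage of ATF6 leave no direct trace in counts per gene.

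Promoter windows from RefSeq (GRCm38.p6, the build also called mm10) were found for 33 of the 36 genes, all but Atf6, Hyou1 and Slc7a5, and were searched on both strands for motifs tied to these branches. A window runs from 250 bases before to 50 bases after an annotated start, and no motif match overlapped a match of another motif. The core of the element bound by ATF4 with C/EBP factors, TGATGNAA, occurred in 6 of the 33 (18.2%), against 4.51% of 27025 genes with a window: Asns, Atf3, Chac1, Herpud1, Slc7a11 and Trib3. The ER stress response element, CCAAT and CCACG with 9 bases of any kind between them, occurred in 7 of the 33, against 37 of the 27025 genes (0.137%). Those 7, Calr, Canx, Creld2, Dnajc3, Hsp90b1, Hspa5 and Pdia6, are all ER chaperones or folding enzymes. The related element, ATTG and CCACG with 1 base between them, was in the windows of Pdia6 and Psat1 (0.0851% of genes), the cyclic AMP response element TGACGTCA in that of Ppp1r15a (2.03%), and the XBP1 element TGACGTGG in 0 of the 33 (0.714%). A match is a description of these letters and does not show that a factor binds there. The genes and the motifs were both chosen for these responses, so the shares are a description and not a test. Of the 11 genes that rose in p57 KO (described below), 2 held the ATF4 element, Atf3 and Trib3. The ER stress element was in 4 of the 11: Calr, Canx, Hsp90b1 and Hspa5. The remaining risers, Pdia3 among them, held neither. The other genes with either element, such as Asns, Chac1, Creld2 and Dnajc3, did not pass the test. The upstream sequences of 4 risers are shown as examples: the ATF4 element in Atf3 and the ER stress element in 3 chaperone genes. Each is written 5′ to 3′ on the strand of the gene, outside annotated exons, with the motif in capitals. They lie on the minus strand at chr1:191183341-191183583 (Atf3), chr8:84846935-84847181 (Calr), chr11:50325674-50325923 (Canx) and chr10:86705510-86705694 (Hsp90b1). The Atf3 stretch is upstream of a RefSeq start that lies inside the gene, which spans 191170296 to 191218039 in GENCODE.
Atf3: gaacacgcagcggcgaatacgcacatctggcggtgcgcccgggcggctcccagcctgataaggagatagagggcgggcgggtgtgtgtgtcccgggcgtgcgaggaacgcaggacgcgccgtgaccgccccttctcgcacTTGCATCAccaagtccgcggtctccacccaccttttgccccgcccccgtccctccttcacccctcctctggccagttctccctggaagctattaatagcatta
Calr: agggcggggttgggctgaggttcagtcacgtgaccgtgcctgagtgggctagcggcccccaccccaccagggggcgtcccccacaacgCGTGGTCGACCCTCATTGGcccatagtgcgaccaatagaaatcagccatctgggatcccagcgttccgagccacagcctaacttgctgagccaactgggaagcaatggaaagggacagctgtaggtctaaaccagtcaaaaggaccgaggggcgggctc
Canx: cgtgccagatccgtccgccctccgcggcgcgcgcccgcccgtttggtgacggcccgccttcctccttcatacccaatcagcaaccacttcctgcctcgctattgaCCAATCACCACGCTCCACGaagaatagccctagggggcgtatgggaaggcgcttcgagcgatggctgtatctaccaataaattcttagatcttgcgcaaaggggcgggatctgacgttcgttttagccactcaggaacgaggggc
Hsp90b1: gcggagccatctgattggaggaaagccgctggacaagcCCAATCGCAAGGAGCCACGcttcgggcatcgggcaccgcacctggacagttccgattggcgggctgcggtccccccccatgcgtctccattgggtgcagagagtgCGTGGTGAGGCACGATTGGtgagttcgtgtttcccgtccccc
In Hspa5 the ER stress element reads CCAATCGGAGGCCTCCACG, and in Asns the ATF4 element reads TGATGAAA.

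Depth was alike in the groups, with 15662833 to 17893671 counts per library, and the share of counts from mitochondrial genes was 3.72% to 3.88%. Cdkn1c lay between 19.9 and 21.4 CPM (counts scaled to the size of the library) in control and between 8.51 and 9.44 CPM in p57 KO. Spermatogonial markers were present in every library: all 15, among them Ddx4 and Dazl, were detected. Their summed levels were 4633 to 4694 CPM in control and 4025 to 4226 CPM in p57 KO (9 fell and 1 rose). For this and the marker counts below, 11.6% of all tested genes rose and 11.6% fell in edgeR at an adjusted p under 0.05. Markers of fibroblasts and feeder cells summed to 1052 to 1353 CPM in control and to 1667, 2252 and 3350 CPM in p57 KO replicates 1, 2 and 3. All 24 of them had a higher mean in p57 KO, without overlap between the groups for 20 (19.5% of all tested genes), and 6 passed the edgeR test. DESeq2 called 20 of the 24 higher (9.47% of all tested genes) and limma-voom 5 (10.9%), and 21 had an unadjusted p under 0.05 in edgeR. None of the 24 was at 0 in all libraries. Peritubular myoid markers summed to 7.83 to 11.3 CPM in control and 15.65 to 19.85 CPM in p57 KO, and all 3 that were tested rose. Of 4 tested macrophage markers, Lyz2, Cd14 and Cd68 rose (log2 fold changes 2.13, 1.30 and 0.40) and Mrc1 fell (-1.07), with sums of 25.0 to 25.9 CPM and 23.9 to 28.3 CPM. Of 5 tested endothelial markers 1 rose and 2 fell (sums of 102 to 107 CPM and 94.4 to 98.5 CPM), and of 6 tested Sertoli cell markers 1 rose (34.9 to 41.5 CPM and 39.1 to 41.0 CPM). Means were under 0.1 CPM for 5 of 6 Leydig cell markers, for Dhh and Fshr of Sertoli cells and for C1qa of macrophages. In these bulk libraries more cells of a type and more RNA per cell cannot be told apart. Replicates 1 and 3 of p57 KO differed most from each other (chi-square 5.97 per degree of freedom over genes, against 1.69 to 2.12 for pairs of control libraries).

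In p57 KO, 11 of the 36 stress genes rose and 1 fell, at an adjusted p under 0.05 in edgeR's quasi-likelihood test over 14814 genes. Of all tested genes, 11.6% rose and 11.6% fell. The risers were the transcription factor genes Atf3, Ddit3, Cebpb, Atf5 and Atf4, the pseudokinase gene Trib3, and the chaperone or folding enzyme genes Calr, Hspa5, Pdia3, Canx and Hsp90b1. Hyou1, another ER chaperone gene, fell. The 8 amino acid supply genes, the 4 sensor genes and the 3 degradation genes had no call. DESeq2 called 9 higher and 1 lower (9.47% and 7.05% of all genes), and limma-voom 11 and 1 (10.9% and 11.4%). The median log2 fold change of the 36 was 0.03, beside -0.0019 over all tested genes. The groups did not overlap for 11 genes that were higher and 4 that were lower, against 19.5% and 19.7% of all tested genes.

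**Figure D1:**
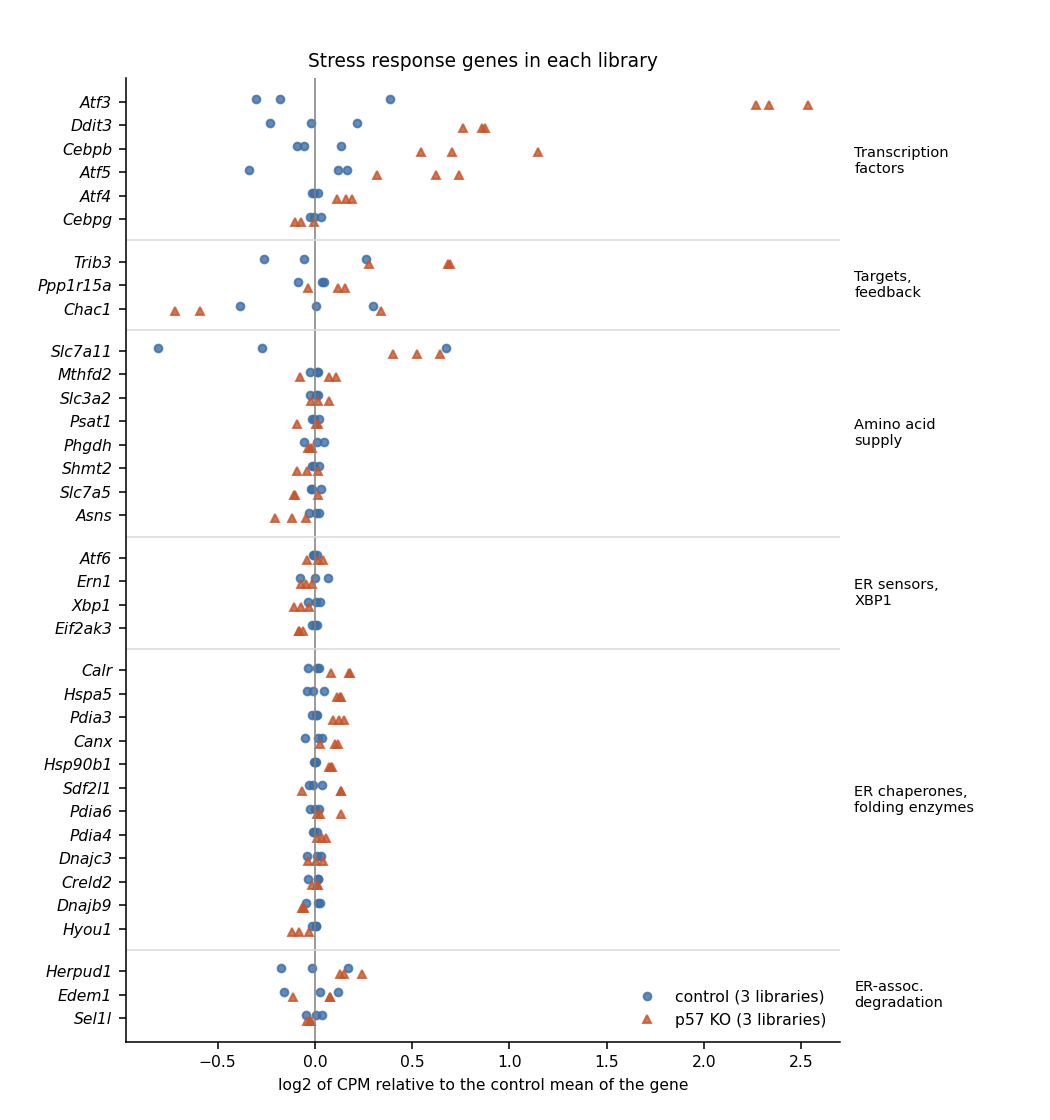
Level of each of the 36 genes in each library, as the log2 of its CPM relative to the mean of the 3 control libraries; circles are control and triangles p57 KO libraries, and genes are grouped by role. The p57 KO points of Atf3, Ddit3, Cebpb, Atf5 and Atf4 lie to the right of all control points, and most chaperone genes differ by under 0.2.

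Sizes differed widely between the branches. When edgeR tested for changes beyond 1.2-fold, 3 of the 36 passed upward and 0 downward (2.79% and 0.371% of all tested genes): Atf3, Ddit3 and Cebpb. A fibroblast score, the mean log2 CPM of the 24 fibroblast markers, was also entered in the model, and then 1 gene rose and 0 fell (1.67% and 1.12% of tested genes), and the riser was Atf3. The score lay between 3.47 and 4.11 in control and between 4.39 and 5.57 in p57 KO, so its ranges in the groups did not overlap. Score and group thus cannot be cleanly separated in 6 libraries, and standard errors (SE) grew, that of Atf4 from 0.036 to 0.067. A call lost with the score, here and below, therefore has no cause that was tested. Without control replicate 1, 2 or 3, the number of stress genes that rose was 9, 8 and 8 (8.12%, 9.57% and 7.78% of all genes), and 0 fell (8.62%, 8.9% and 7.77%). Leaving out p57 KO replicate 1, 2 or 3 gave 11, 8 and 8 risers (14.2%, 8.55% and 9.71%) and 2, 1 and 0 falls (12.5%, 8.87% and 8.52%). The falls were Hyou1 and Slc7a5 without p57 KO replicate 1 and Asns without p57 KO replicate 2. A stricter filter gave 11 risers and 0 falls (12% and 11.7%).

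Atf3 showed the largest change of the 36. It encodes a stress-induced bZIP factor that ATF4 and other stress pathways switch on, and lies on chromosome 1 from 191170296 to 191218039. Its levels were 1.4, 2.06 and 1.28 CPM in control and 7.95, 7.61 and 9.13 CPM in p57 KO, from 20 to 35 and 125 to 163 counts per library. Every p57 KO library was far above every control library. This is a log2 fold change of 2.37 (SE 0.18, 95% interval 1.99 to 2.75, edgeR adjusted p = 7.79e-09), a 5.18-fold rise. With the fibroblast score in the model it was 2.06 (SE 0.29, adjusted p = 3.95e-06), and leaving out single libraries gave 2.24 to 2.61. Within p57 KO, Atf3 was highest in replicate 3, the library with the highest fibroblast marker sum, and lowest in replicate 2, which had the middle sum.

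Ddit3 encodes CHOP, the factor downstream of ATF4 that is tied to cell death under lasting stress. It lies on chromosome 10 from 127290774 to 127296288. Its levels were 4.79, 6.53 and 5.56 CPM in control and 10.2, 9.56 and 10.3 CPM in p57 KO. The groups did not overlap, and the p57 KO libraries were close to each other. On average Ddit3 was 77.9% higher (log2 fold change 0.83, SE 0.13, edgeR adjusted p = 8.15e-05). It was 0.68 with the fibroblast score (SE 0.22, adjusted p = 0.087). Exons of Ddit3 overlap exons of Mars, the methionyl-tRNA synthetase gene, on the other strand. The strand setting of the counting is not given, so reads in the overlap are uncertain. Mars itself went from 232 to 248.5 CPM in control to 220 to 229 CPM in p57 KO, opposite in direction to Ddit3.

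Cebpb, which encodes a C/EBP factor that pairs with ATF4 and is also active in inflammation and in mesenchymal cells, had 6.55, 7.65 and 6.71 CPM in control. In p57 KO it had 10.2, 11.4 and 15.5 CPM, highest in replicate 3, the library with the highest fibroblast marker sum. Cebpb rose by 0.83 on the log2 scale (SE 0.14, edgeR adjusted p = 0.000538), and with the fibroblast score it was 0.18 (SE 0.20, adjusted p = 0.765). Why the value was smaller was not tested, and these libraries cannot tell it, because the score itself differs between the groups without overlap. Atf5, an ATF4-like factor also linked to mitochondrial stress, had 9.52, 13.1 and 13.5 CPM in control and 15.0, 18.5 and 20.1 CPM in p57 KO. Its groups lay close together without overlap, and its control libraries varied by 18.1% (coefficient of variation), against 7.13% from counting alone. Atf5 rose by 0.58 on the log2 scale (SE 0.14, edgeR adjusted p = 0.0131). It was 0.55 (adjusted p = 0.0715) without p57 KO replicate 2, and 0.11 (adjusted p = 0.862) with the fibroblast score. Exons of Atf5 overlap those of Nup62, which fell (log2 fold change -0.15, edgeR adjusted p = 0.00127), and of Il4i1. Exon overlaps of this kind were also found for Cebpb with Tmem189 and Pdia3 with Catsper2, and neither neighbour passed the test (edgeR adjusted p = 0.487 and 0.728).

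Atf4, the centre of the branch, changed by a small amount. It lies on chromosome 15 from 80255184 to 80257541 and had 101, 99.5 and 98.8 CPM in control against 114, 111 and 108 CPM in p57 KO. All p57 KO libraries were higher than all control libraries. Atf4 was 11.3% higher in p57 KO (log2 fold change 0.15, SE 0.04, edgeR adjusted p = 0.00317). With the fibroblast score the value was larger, 0.22, and its adjusted p was 0.0539. Cebpg, the gene of another C/EBP partner of ATF4, had 50.2 to 52.3 CPM in control and 47.7 to 51.0 CPM in p57 KO. Its 95% interval for the log2 fold change was -0.16 to 0.04, so a rise like that of Cebpb lies outside it.

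**Figure D2:**
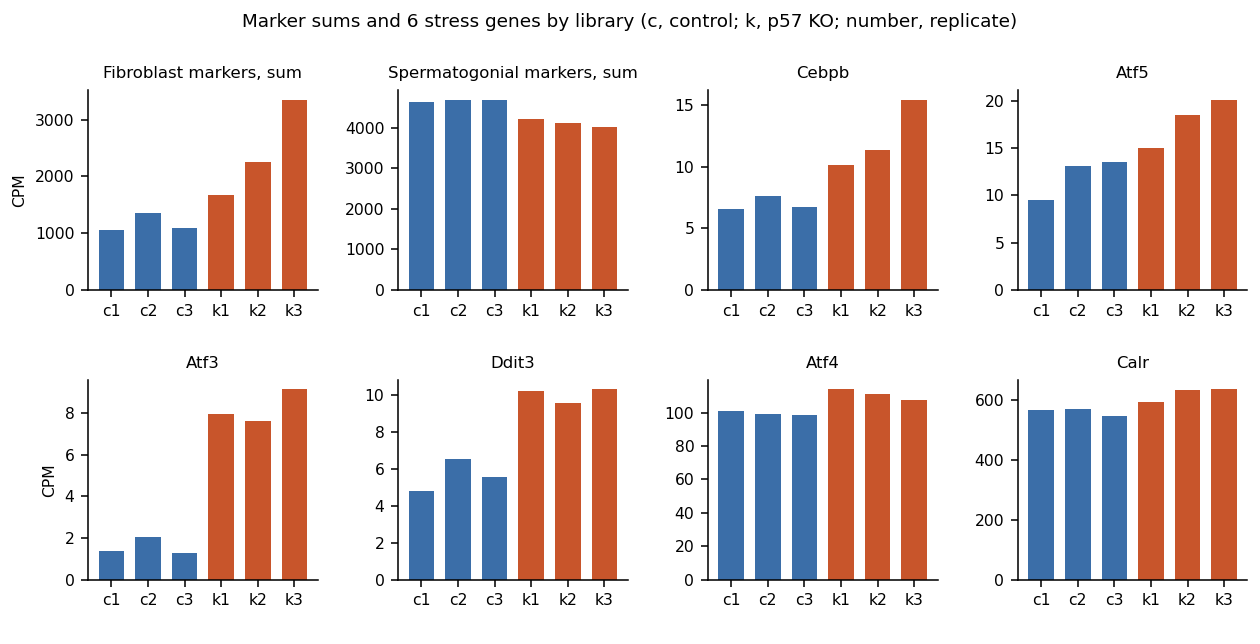
Bars give the summed CPM of the 24 fibroblast and 15 spermatogonial markers and the CPM of 6 stress genes in each library, with control in blue and p57 KO in orange. Within p57 KO, Cebpb, Atf5, Atf3, Ddit3 and Calr are highest in replicate 3, as the fibroblast sum is (3350 CPM). Atf4 is lowest there (108 CPM). Ddit3 (10.2 and 10.3 CPM in replicates 1 and 3) and Calr (632 and 634 CPM in replicates 2 and 3) are nearly tied. Atf3 and Ddit3 are lowest in replicate 2, which has the middle fibroblast sum. Of the risers not drawn, Pdia3 and Canx were highest in replicate 3, Trib3 in replicate 2, and Hspa5 and Hsp90b1 in replicate 1.

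The targets and feedback genes of the branch gave a mixed picture. Trib3, which encodes a pseudokinase that restrains ATF4 and AKT signalling, had 4.06, 2.82 and 3.26 CPM in control and 4.10, 5.48 and 5.43 CPM in p57 KO. Replicate 1 of p57 KO was only just above the highest control library. Trib3 rose by 0.57 on the log2 scale (SE 0.18, edgeR adjusted p = 0.0239), and DESeq2 gave an adjusted p of 0.105. In edgeR the adjusted p was 0.126 without control replicate 2 (log2 fold change 0.45), 0.0843 without control replicate 3 (0.54), 0.11 with p57 KO replicate 2 omitted (0.50) and 0.0761 when p57 KO replicate 3 was left out (0.50). The fibroblast score in the model gave 0.40 (adjusted p = 0.628).

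Ppp1r15a encodes GADD34, the regulatory subunit that directs a phosphatase to eIF2alpha and so ends the response. It had 110, 100 and 110 CPM in control and 119, 104 and 116 CPM in p57 KO, and the groups overlapped. The log2 fold change was 0.08 (95% interval -0.03 to 0.19, edgeR adjusted p = 0.272). Without p57 KO replicate 2 it was 0.13 with an adjusted p of 0.0455. Chac1, which encodes a glutathione-degrading enzyme and is a target of ATF4, ATF3 and CHOP, was barely detected, with 13 to 28 counts per library. Its values of 1.03, 1.35 and 1.66 CPM in control and 0.820, 1.70 and 0.896 CPM in p57 KO overlapped fully, with a 95% interval of -0.91 to 0.43 on the log2 scale. At this depth a rise of Chac1 as large as that of Atf3 would lie outside the interval.

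The amino acid supply genes, which ATF4 raises under amino acid shortage, had 0 calls among 8 in edgeR, DESeq2 and limma-voom, and 1 gene, Asns, had an unadjusted p under 0.05 in edgeR. Asns, which encodes asparagine synthetase, was lower in every p57 KO library, with 59.4, 60.9 and 61.4 CPM in control and 55.8, 58.6 and 52.6 CPM in p57 KO. Its log2 fold change was -0.12 (SE 0.05, 95% interval -0.22 to -0.02, edgeR adjusted p = 0.0678). Without p57 KO replicate 2 it was -0.16 (adjusted p = 0.0312). So the direction of Asns was opposite to that of Atf4 and Trib3 in these libraries.

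The serine and one-carbon genes lay close to the control level. Phgdh and Psat1, which encode enzymes of serine synthesis, had log2 fold changes of -0.03 and -0.02, and Shmt2 and Mthfd2, of mitochondrial folate metabolism, had -0.04 and 0.04. The widest 95% interval of these 4 was that of Mthfd2, from -0.06 to 0.13. The transporter gene Slc7a5, which encodes the large neutral amino acid carrier LAT1, had 728, 726 and 751 CPM in control and 743, 682 and 685 CPM in p57 KO. In p57 KO, replicate 1 was within the control range and the others were below it (log2 fold change -0.06, edgeR adjusted p = 0.148). Without p57 KO replicate 1 the value was -0.11 (adjusted p = 0.00396). Slc3a2, the gene of the heavy chain that LAT1 and xCT share, had 0.02 (95% interval -0.04 to 0.08). Slc7a11, which encodes the cystine transporter xCT, had 8 to 23 counts per library, and no difference was detectable at this depth (95% interval -0.21 to 1.23).

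None of the ER sensor genes passed in edgeR, DESeq2 or limma-voom, and 0 of the 4 had an unadjusted p under 0.05 in edgeR. Eif2ak3, which encodes the eIF2alpha kinase PERK, had 87.0, 88.1 and 88.8 CPM in control and 84.4, 83.2 and 83.1 CPM in p57 KO. All p57 KO libraries were lower, and the interval just reached past 0 (log2 fold change -0.07, 95% interval -0.15 to 0.0021, edgeR adjusted p = 0.151). Xbp1, whose mRNA IRE1 splices, had -0.07 (95% interval -0.15 to 0.01), and Ern1, the gene of IRE1, had -0.05 (-0.14 to 0.05). Atf6 had 39.2 to 39.8 CPM in control and 38.4 to 40.6 CPM in p57 KO, with a log2 fold change of 0.0057 (-0.10 to 0.12).

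**Figure D3:**
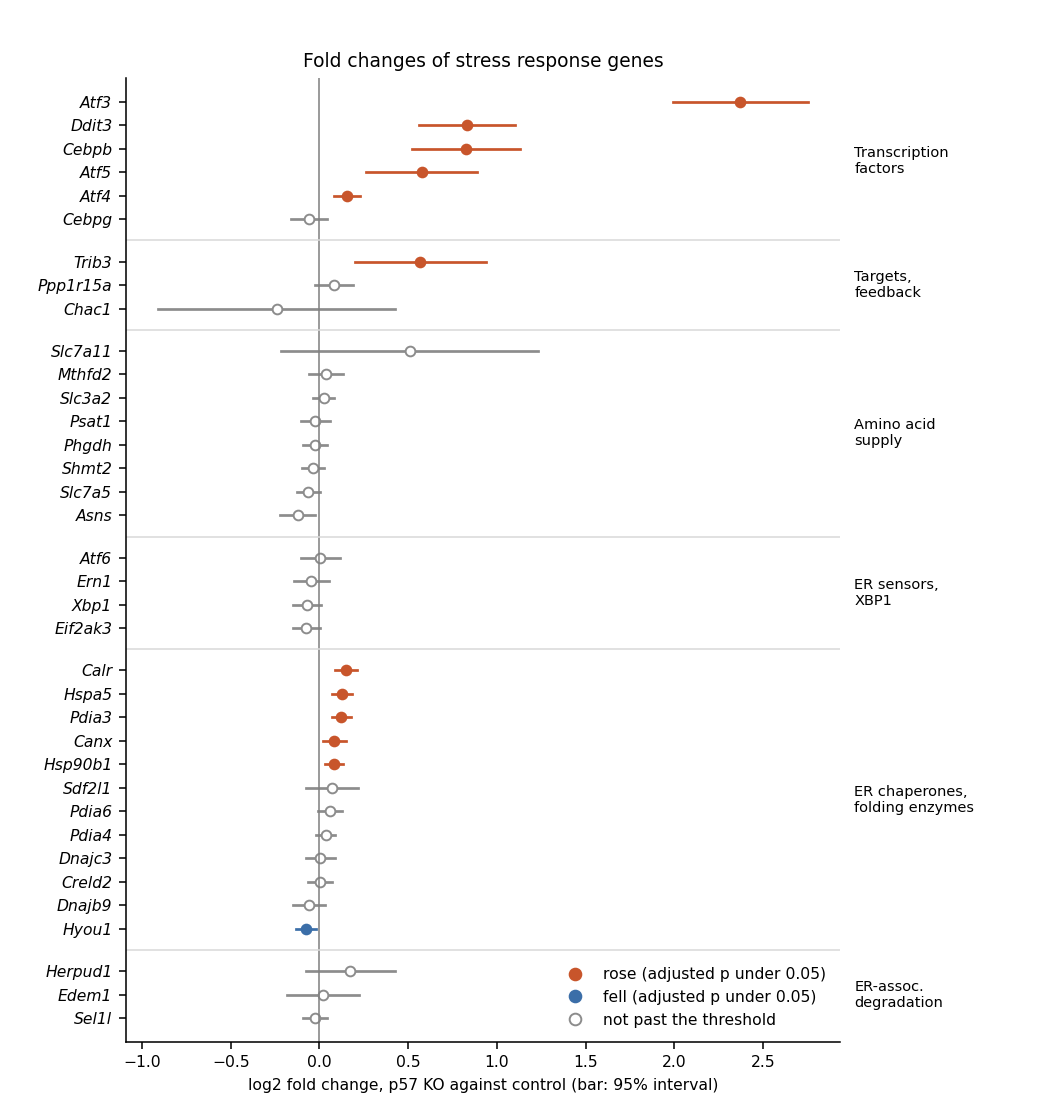
Points are the log2 fold changes, p57 KO against control, of the 36 genes from edgeR, and bars their 95% intervals; filled points passed an adjusted p of 0.05. Atf3 stands at 2.37, and the 5 chaperone genes that rose lie between 0.08 and 0.15, above Hyou1 at -0.08.

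Among the 12 ER chaperones and folding enzymes, 5 rose and 1 fell, all by under 11%, beside 11.6% of all tested genes that rose and 11.6% that fell. Calr, which encodes calreticulin, the lectin chaperone that binds calcium in the ER, had 564, 568 and 547 CPM in control and 594, 632 and 634 CPM in p57 KO. The groups did not overlap, and the level was 10.8% higher (log2 fold change 0.15, SE 0.03, edgeR adjusted p = 0.00077). Hspa5, the gene of BiP, the master HSP70 chaperone of the ER, had 575, 598 and 562 CPM in control and 635, 626 and 633 CPM in p57 KO. It was 9.14% higher, with the p57 KO libraries close to each other (log2 fold change 0.13, SE 0.03, edgeR adjusted p = 0.00184). Pdia3, which encodes the disulfide isomerase ERp57 that works with calreticulin and calnexin, had 768, 767 and 755 CPM against 815, 832 and 846 CPM, 8.87% higher (edgeR adjusted p = 0.00132). Within p57 KO, replicate 1, which had the lowest fibroblast marker sum of its group, was the lowest in Calr and Pdia3 and the highest in Hspa5.

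Hsp90b1, the gene of the ER HSP90 chaperone GRP94, was even within each group, with 890, 886 and 888 CPM in control and 943, 933 and 942 CPM in p57 KO. Its libraries varied by 0.251% and 0.543% within the groups, less than the 0.829% and 0.798% that counting alone would give. Within p57 KO it was highest in replicate 1. It was 5.75% higher in p57 KO (log2 fold change 0.08, SE 0.02, edgeR adjusted p = 0.0192), and in 5 of the 6 fits without 1 library its adjusted p lay above 0.05, at up to 0.0645. Canx, which encodes calnexin, the membrane-bound partner of calreticulin, had 322, 342 and 337 CPM in control and 340, 359 and 363 CPM in p57 KO. Its groups overlapped and its call was at the threshold (log2 fold change 0.08, edgeR adjusted p = 0.049). DESeq2 gave it an adjusted p of 0.0727, and 1 of the 6 fits without 1 library, that without p57 KO replicate 1, called it (adjusted p up to 0.261 in the others).

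Hyou1, which encodes GRP170, an exchange factor for BiP that the unfolded protein response also raises, went the other way. It had 683, 673 and 684 CPM in control and 666, 643 and 628 CPM in p57 KO, lower in all p57 KO libraries by 5.07% on average (edgeR adjusted p = 0.0486). Only 1 of the 6 fits without 1 library, the fit without p57 KO replicate 1, called it, with adjusted p of up to 0.213 in the others, and the stricter filter gave 0.0597. The other 6 members of the group had no call. Sdf2l1, Pdia6 and Pdia4 had log2 fold changes of 0.07, 0.06 and 0.03, and Dnajc3 and Creld2 had 0.0052 and 0.0035. The BiP cochaperone gene Dnajb9, a target of spliced XBP1, had 59.7, 62.4 and 62.9 CPM in control and 58.9, 59.2 and 59.2 CPM in p57 KO, lower without overlap but with no call (-0.06, edgeR adjusted p = 0.345).

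Together the 12 chaperone genes summed to 4860 ± 31.8 CPM in p57 KO, against 4626 ± 35.6 CPM in control (mean ± SD, n = 3 each), and were 5.05% higher. Pdia3, Calr, Hspa5 and Hsp90b1 added 67.7, 60.6, 52.9 and 51.1 CPM to that difference of 233.7 CPM, and Hyou1 took away 34.4 CPM. The 6 transcription factor genes summed to 177 ± 3.59 CPM and 209 ± 1.74 CPM, 17.8% higher, of which Atf4 gave 11.3 CPM and Atf3 6.65 CPM. Amino acid supply genes summed to 1646 ± 24.4 CPM and 1605 ± 49.6 CPM. With the fibroblast score in the model, Hspa5 had 0.09 (adjusted p = 0.349), Hsp90b1 0.09 (0.367), Pdia3 0.08 (0.461) and Calr 0.06 (0.667), and 0 chaperone genes were called. The number of chaperone genes that rose was 5 without p57 KO replicate 1 and 3 without control replicate 1, 2 or 3 or p57 KO replicates 2 or 3, and it was 4 in DESeq2. Of all tested genes, 14.2% rose without p57 KO replicate 1, 7.78% to 9.71% in the other fits without 1 library and 9.47% in DESeq2.

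The degradation genes had 0 calls among 3 in edgeR, DESeq2 and limma-voom, with 0 at an unadjusted p under 0.05 in edgeR. Herpud1, an ER membrane component of the degradation complex that PERK and ATF6 signalling induce, had 7.10, 9.0 and 7.93 CPM in control and 8.77, 8.89 and 9.47 CPM in p57 KO, with overlap (log2 fold change 0.17, 95% interval -0.07 to 0.42). Edem1, which delivers misfolded glycoproteins for degradation, varied between libraries of the same group by 9.64% in control and 7.33% in p57 KO, above the 2.73% and 2.68% of counting. It had 73.5, 89.2 and 83.4 CPM in control and 76.0, 86.4 and 86.6 CPM in p57 KO, so replicate 1 was lowest in both groups. Sel1l, the adaptor of the HRD1 ubiquitin ligase, had -0.03 (95% interval -0.09 to 0.04).

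Levels were compared between genes as TPM, which divides counts by the exon length of the gene and then by the library's sum, with lengths from release M21 of the GENCODE mouse annotation. In control, Pdia3 was highest with 920 ± 8.23 TPM (SD, n = 3), followed by Hsp90b1 with 834 ± 1.99, Slc7a5 with 750 ± 14.1, Calr with 735 ± 14.5 and Hspa5 with 518 ± 16.3 TPM. Slc7a5 and Calr did not differ beyond their spread, nor did Slc3a2 (272 ± 3.83), Canx (269 ± 8.30) and Phgdh (267 ± 9.54 TPM). Atf4 stood at 160 ± 1.67 TPM, far above Ddit3 with 12.4 ± 1.93, Trib3 with 6.02 ± 1.12 and Atf3 with 2.77 ± 0.741 TPM. In p57 KO, Atf3 reached 14.2 ± 1.36 TPM, near Herpud1 (14.4 ± 0.593 TPM), and Ddit3 21.7 ± 0.838 TPM. So the genes with the largest fold changes were among the least abundant of the set, and Atf4 remained more abundant than each of them.

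**Figure D4:**
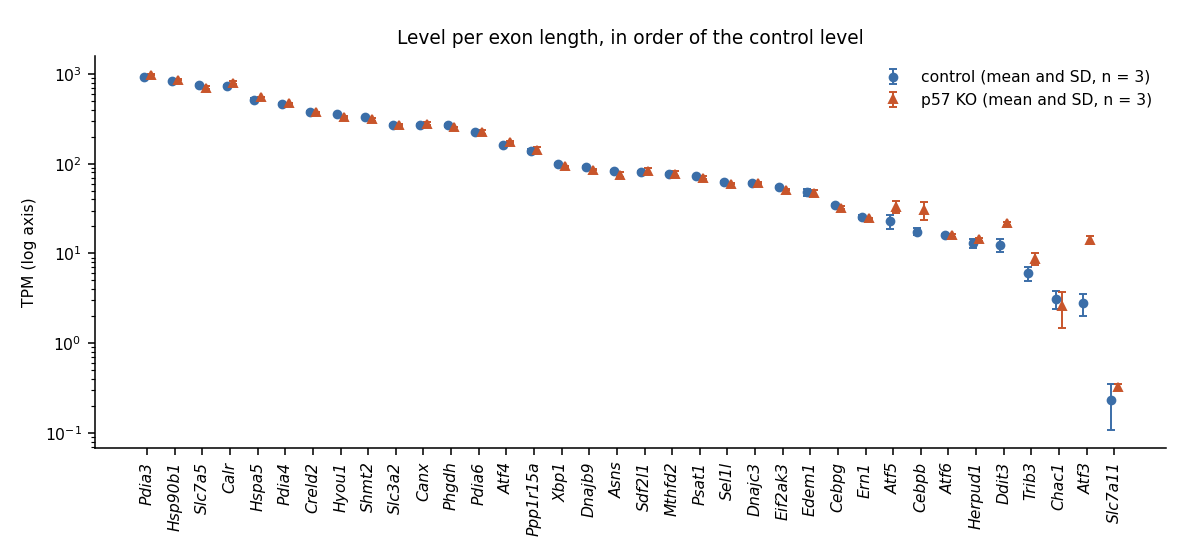
Mean level of each gene in TPM, on a log axis, in order of the control level, with circles for control, triangles for p57 KO and bars for the SD over 3 libraries. Atf3 moves from 2.77 to 14.2 TPM and Ddit3 from 12.4 to 21.7 TPM, while the abundant genes on the left nearly coincide.

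Further genes of both responses and of related processes were counted in 10 lists. The lists were chosen with earlier results of these data known, so their counts are a description and not a test. Their counts stand beside 11.6% of all tested genes that rose and 11.6% that fell. Of 20 other ATF4 targets, 5 rose and 0 fell, with a median log2 fold change of 0.14 (1 gene was lower at an unadjusted p under 0.05 in edgeR, and 0 fell in DESeq2 or limma-voom). Ddit4, which encodes the mTORC1 inhibitor REDD1, went from 48.8 to 51.4 CPM in control to 103 to 108 CPM in p57 KO (log2 fold change 1.07, edgeR adjusted p = 8.58e-14). Sesn2, the gene of another mTORC1 restraint, went from 100.2 to 103.8 CPM to 157 to 164 CPM (0.66). Gdf15, a stress cytokine gene, went from 1.10 to 3.22 CPM on average (1.55). All 3 are also targets of p53. With the fibroblast score 2 of the 20 rose, beside 1.67% of all tested genes.

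Among the 14 genes of eIF2alpha kinases, eIF2, eIF2B and the phosphatase, 2 rose and 1 fell, with a median of 0.03, and both shares are near the 11.6% of all tested genes that rose and the 11.6% that fell. Eif2ak1, the gene of the heme-regulated kinase HRI, fell (112 to 100 CPM on average, log2 fold change -0.16, edgeR adjusted p = 0.00438). Eif2ak2, the gene of the double-stranded RNA sensor PKR, rose from 10.4, 10.5 and 10.9 CPM to 11.9, 13.5 and 17.3 CPM (0.43, edgeR adjusted p = 0.0135). Its order in p57 KO was that of the fibroblast marker sums. In control Eif2ak2 was highest in replicate 3 and the fibroblast sum in replicate 2. Eif2s3x rose by 0.17 on the log2 scale. DESeq2 called 1 higher. When control replicate 1, 2 or 3 or p57 KO replicate 3 was left out, 0 rose, and 1 rose without p57 KO replicate 1. The fibroblast score left 0 that rose.

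Cytosolic aminoacyl-tRNA synthetase genes, a group that ATF4 raises, had a median of -0.04, and of 20, 1 rose and 3 fell. So 20% of them were called in either direction, a share near the 23.3% of all tested genes (11.6% rose and 11.6% fell). Without overlap between the groups, 9 were lower and 1 higher, against 19.7% and 19.5% of all tested genes. At an unadjusted p under 0.05 in edgeR 7 were lower and 2 higher, against 2590 and 2691 of all 14814 tested genes. Cars fell by 0.23, Mars by 0.10 and Wars by 0.18 on the log2 scale, and Sars, chosen after its value was seen, rose by 0.09. DESeq2 called 0 higher and 1 lower. In each of the 6 fits without 1 library 0 rose, and 1 fell without control replicate 3 or p57 KO replicate 3. Of 10 tested amino acid transporter genes, Slc38a2 rose (0.11) and Slc7a6 fell (-0.13), which is 20% called and also near the share of all tested genes. DESeq2 called 0 of them. Leaving out control replicate 1 or p57 KO replicate 3 gave 0 that rose. Leaving out control replicate 1 or 3 or p57 KO replicate 3 gave 0 that fell, and without p57 KO replicate 1, 2 fell. Over the fits without 1 library, 7.78% to 14.2% of all tested genes rose and 7.77% to 12.5% fell.

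Lists of the ER machinery outside the 36 genes differed in direction, beside 11.6% of all tested genes that rose and 11.6% that fell. Of 18 other degradation genes, 0 rose and 5 fell, with a median of -0.06 (1 gene was higher at an unadjusted p under 0.05 in edgeR, and 0 rose in DESeq2 or limma-voom). Herpud2, Faf2 and Ufd1 had -0.23, -0.19 and -0.14. Of 20 genes of translocation into the ER and glycosylation, 2 rose, a share near that of all genes, and 6 fell, with a median of -0.04. The signal peptidase gene Spcs2, Sec63 and the oligosaccharyltransferase gene Stt3b had -0.16, -0.12 and -0.10. The 2 risers, chosen after their values were seen, were Spcs1 (0.22) and Stt3a (0.16). In that list 3 fell without control replicate 1 or p57 KO replicate 3 and 2 without control replicate 2. Leaving out control replicate 1 or 3 or p57 KO replicate 2 or 3 gave 0 that rose. Of 19 other folding enzymes, 12 had log2 fold changes above 0 and the median was 0.04; Uggt1 rose (0.08) and Pdia5 fell (-0.20). In DESeq2, limma-voom and 5 of the 6 fits without 1 library, 0 of the 19 rose, and without p57 KO replicate 1, 2 rose and 2 fell. With the fibroblast score 0 genes of these 3 lists were called.

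Of 11 other genes, listed as ER stress transducers and linked factors, 2 rose and 2 fell. So 36.4% of this list was called, beside 23.3% of all tested genes (11.6% rose and 11.6% fell). Bbc3, the gene of the cell death inducer PUMA, which CHOP and p53 can both switch on, went from 25.8 to 60.1 CPM on average (log2 fold change 1.22, edgeR adjusted p = 3.14e-12). Creb3l1, the gene of an ER-bound factor active in matrix-secreting cells, rose by 0.59, and Map3k5 and Atf6b fell by 0.22 and 0.15, Atf6b being chosen after its value was seen. The number that fell was 1 without control replicate 3, where 7.77% of all tested genes fell. Of 11 genes of the mitochondrial unfolded protein response, 0 rose and 2 fell: Yme1l1 with -0.14 and Clpx with -0.12. That is 18.2% called, beside 23.3% of all tested genes. At an unadjusted p under 0.05 in edgeR 2 genes were higher, and 0 rose in DESeq2 or limma-voom. In DESeq2 and in 5 of the 6 fits without 1 library, all but that without p57 KO replicate 1, 1 of the 11 fell. There 7.05% of all tested genes fell in DESeq2, and 7.77% to 8.9% in those 5 fits.

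Targets of NRF2, the factor of oxidative stress, showed 8 risers and 0 falls among 12, with a median of 0.17. Of all tested genes, 11.6% rose and 11.6% fell. At an unadjusted p under 0.05 in edgeR 0 of the 12 fell, and 0 fell in DESeq2 or limma-voom. Txnrd1, the thioredoxin reductase gene, went from 435 to 479 CPM on average (log2 fold change 0.14), Hmox1, the heme oxygenase gene, from 118 to 139 CPM (0.24), and Nqo1, a quinone reductase gene, from 7.88 to 10.9 CPM (0.47). Within p57 KO, replicate 1 was the lowest in Nqo1 and Hmox1, and replicate 3 was the lowest in Txnrd1. The number that rose was 3 without control replicate 1 or 3, 5 when p57 KO replicate 3 was left out and 1 for p57 KO replicate 2. The fibroblast score in the model left 0 that rose, beside 1.67% of all tested genes.

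**Figure D5:**
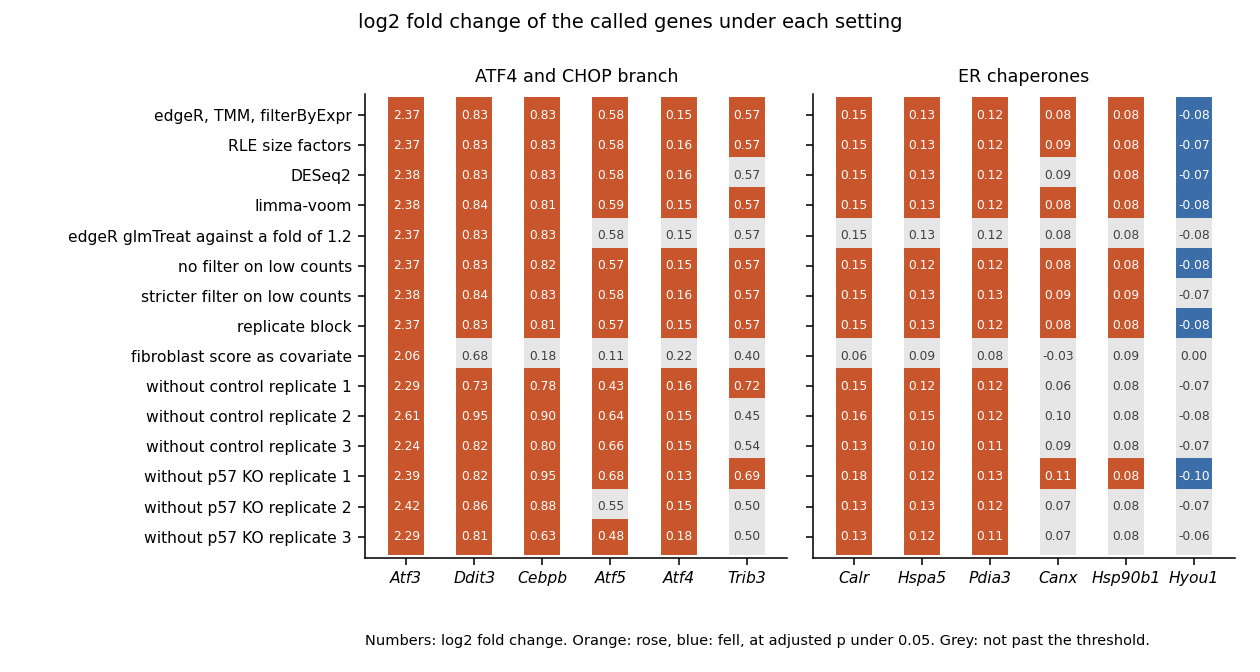
log2 fold changes of the 12 called genes (columns) under edgeR with TMM and 14 alternatives (rows); orange marks a rise, blue a fall and grey a value past no threshold. Atf3 keeps its call in all 14, Cebpb and Ddit3 in 13, and Atf4, Calr, Hspa5 and Pdia3 in 12, while Canx and Hyou1 keep it in 6.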

How the data were processed

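RNA was measured by sequencing in 3 control and 3 p57 KO libraries, as single reads of 76 bp from a stranded mRNA kit whose name differs between labels. The authors deposited whole-number counts for each gene and library, without scaling. Tools named by the submitters' processing notes are HISAT2 2.2.1, HTSeq 2.0.2, cutadapt 3.4 and bcl2fastq 2.20, with mm10 as the build. Not given in the sources used here are the annotation, the strand setting and how reads with several matches were counted. Genes were filtered with filterByExpr, scaled by TMM and tested with edgeR 4.0.16 (limma 3.58.1, R 4.3.3), quasi-likelihood, group as the only term, robust, Benjamini-Hochberg adjustment over 14814 genes. The test was checked on simulated data. CPM values are after TMM; 95% intervals are the fold change plus or minus the t quantile times its SE. Precision rests on the spread between the 3 libraries of each group and on total counts of 15662833 to 17893671 per library, and intervals cover these libraries. TPM used exon lengths of GENCODE M21 (32158 of 32285 identifiers matched), and positions are mm10. Promoter windows are from RefSeq.

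The members and lists were chosen with earlier results of these data known. Named by rule were Cdkn1c, all 36 members and up to 3 called genes of smallest p from each further list. Alternatives were RLE, DESeq2 1.42.0, limma-voom, a test against a 1.2-fold change, no filter, the replicate number as a block, a stricter filter (at least 1 CPM in 3 libraries), the fibroblast score and each library left out. Every pair of replicates differed by more than sampling noise.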

Additional observations from a re-analysis of the deposited data

How the results depend on the processing

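Direction and call of the 36 genes were unchanged with RLE size factors, limma-voom and no filter. Among all tested genes 414 rose and 55 fell against a fold of 1.2, and 247 rose and 166 fell with the fibroblast score, in place of 1725 each; DESeq2 called 1044 lower. Of the 36, 3 rose against a fold of 1.2 and 1 with the fibroblast score, in place of 11, and in both 0 fell, in place of 1; 0 fell with the stricter filter too. The fits without 1 library, which hold fewer samples, called 8 to 11 of the 36 higher and 0 to 2 lower. With the fibroblast score Canx turned to -0.025 and Hyou1 to 0.0045, neither past the threshold; for these the cause was not tested. The replicate number as a block gave 11 risers and 1 fall among the 36, and 1934 and 1772 among all genes; the numbers pair no samples by the data, since deviations of same-numbered libraries correlated by 0.19, 0.025 and -0.10, and not every library correlated best with its own number. Depth limits Chac1 and Slc7a11, with under 30 counts per library.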
